A study of Mus musculus with 2 samples.

Results

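The 9 genes Smad7, Smad6, Skil, Ski, Tgif1, Smurf1, Smurf2, Pmepa1 and Bambi encode proteins that restrain TGF-β family signaling. They were examined for regions bound by the transcription factors Etv4 and Etv5. A region was assigned to a gene when it lay inside the gene or within 50 kb of it, with gene limits from GENCODE on the mouse genome build mm10. By this rule 74 of the 13636 regions in the Etv4 list and 27 of the 8297 regions in the Etv5 list were assigned. The data consisted of 2 ChIP-seq libraries from EpRas cells, an H-Ras-transformed derivative of the EpH4 mouse mammary epithelial line, kept in 4% serum. All cells had received 1 ng/ml TGF-β3 for 1.5 h, so the H-Ras transgene, the serum and the cytokine were shared by both libraries. A rabbit polyclonal antibody against Etv4 was used for the first library and a mouse monoclonal antibody against Etv5 for the second. With 1 library per antibody there was no replicate and no test between the lists, and the protein, the antibody and the sequencing depth cannot be told apart as sources of a difference. Untreated cells, parental EpH4 cells and input DNA were not analysed here.

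TGF-β binds a pair of receptor kinases that phosphorylate the receptor-activated Smads, Smad2 and Smad3, which enter the nucleus with Smad4 and regulate transcription. The pathway induces several of its own inhibitors, and this negative feedback limits how long the Smads stay active. Etv4 and Etv5 belong to the PEA3 group of the ETS family, whose members recognise a GGAA core and are commonly activated downstream of Ras and the MAP kinases.

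Of the 9 genes, 8 had at least 1 Etv4 region and the same 8 had at least 1 Etv5 region. Among 21938 protein-coding genes, 53.4% had an Etv4 region, 42.7% had an Etv5 region and 36.4% had both in windows drawn by the same rule. Bambi had none of either list. A region that touched the gene itself was present at 4 genes for Etv4 (Smad7, Smurf1, Pmepa1 and Tgif1, against 23.0% of protein-coding genes) and at 6 genes for Etv5 (these 4, Skil and Ski, against 14.7%). The number of Etv4 regions was 30 at Pmepa1, 18 at Smad7, 8 at Smurf2, 7 at Smurf1, 5 at Tgif1, 3 at Ski, 2 at Smad6 and 1 at Skil. The number of Etv5 regions was 6 at Pmepa1, 5 at Smad7, 5 at Smurf1, 4 at Smurf2, 2 each at Ski, Smad6 and Skil, and 1 at Tgif1. The median per gene was 5 Etv4 and 2 Etv5 regions, against 1 and 0 over all protein-coding genes. The windows of the 9 genes were also longer, with a median of 152 kb against 117 kb. Each window includes a fixed 50 kb on each side, so the genes themselves differed more in relative length. The counts of genes touched by a region were not adjusted for gene length. Pmepa1 and Smad7 together held 48 of the 74 Etv4 regions (64.9%) and 11 of the 27 Etv5 regions (40.7%), so any share over all Etv4 regions is weighted towards these genes.

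**Figure D1:**
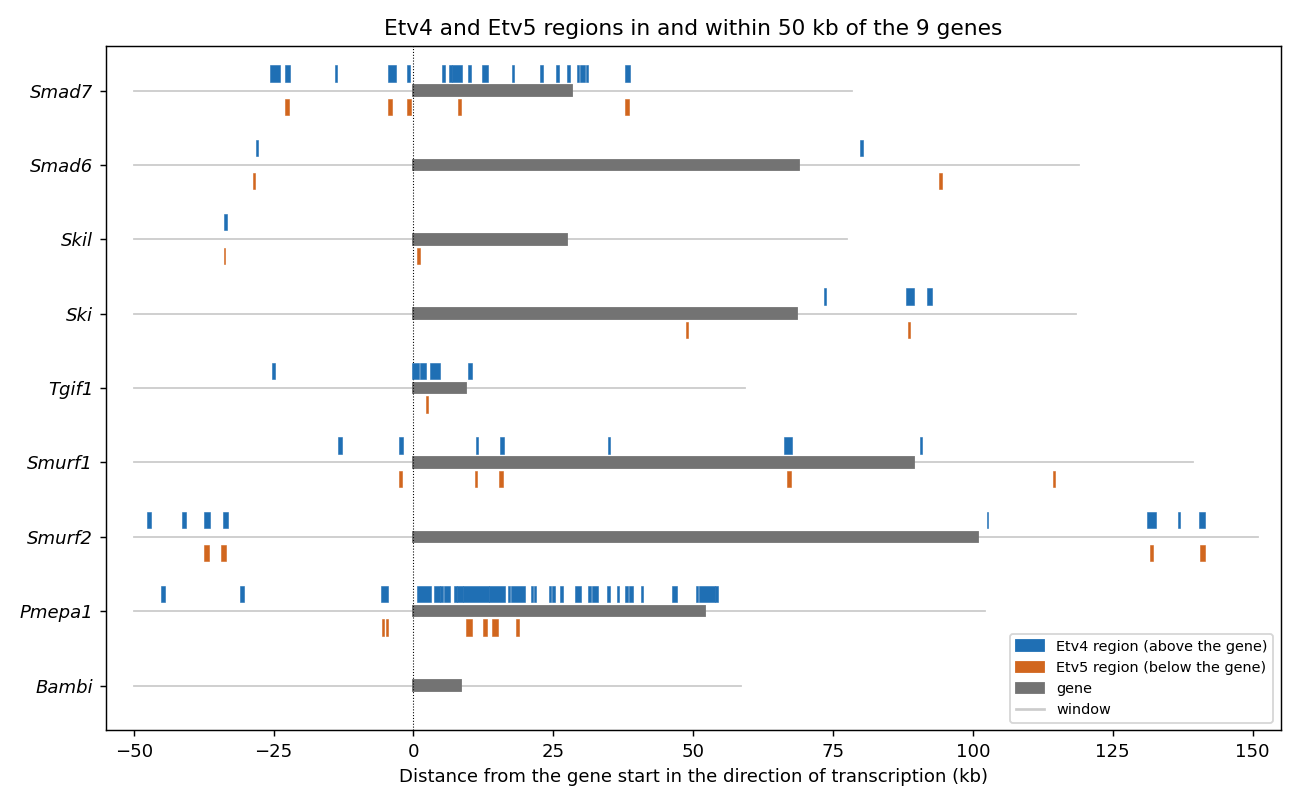
Each row is 1 gene, drawn from its start in the direction of transcription (x axis, kb), with Etv4 regions above and Etv5 regions below the gene at their own length. Etv4 regions cover 52.2% of Pmepa1 and are densest in its first 20 kb, Smurf2 has regions on both sides and none inside, and Bambi has none.

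Per length of window, Pmepa1 had 19.7 Etv4 regions per 100 kb and Smad7 had 14, against a median of 0.521 for protein-coding genes. In the surrounding sequence, from 50 to 500 kb on either side, these densities were 0.778 and 1.89 per 100 kb. At both genes the density was thus lower outside the window than within it. For Etv5, Pmepa1 had 3.95 regions per 100 kb and Smad7 had 3.89, with 0.778 and 0.556 in the surrounding sequence. Smurf1 had 3.70 Etv4 and 2.64 Etv5 regions per 100 kb, against 0.444 and 0.111 around it. Tgif1 went the other way for Etv5, with 0.915 per 100 kb in its window and 1.67 around it. The Etv4 density at Smad6 was 1.18 per 100 kb, below the 1.56 of its surroundings.

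**Figure D2:**
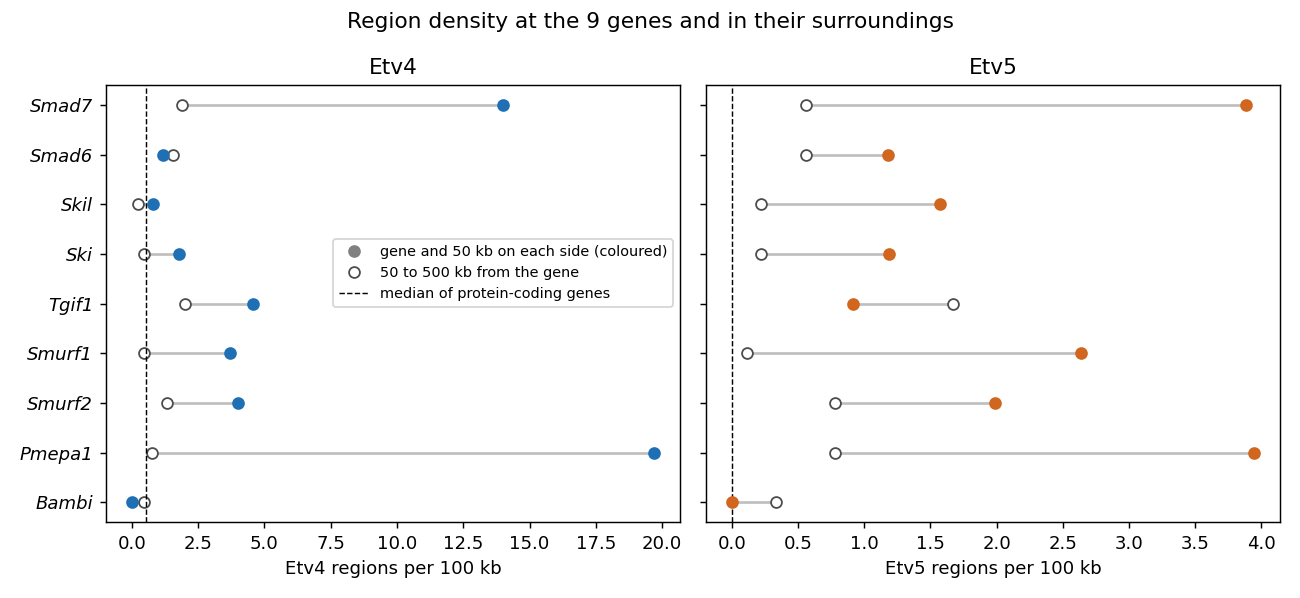
Filled circles give the regions per 100 kb in the gene and 50 kb on each side, open circles those from 50 to 500 kb away, and the dashed line the median of protein-coding genes (0.521 for Etv4 and 0 for Etv5). Pmepa1 at 19.7 and Smad7 at 14 stand furthest to the right for Etv4.

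Smad7 is an inhibitory Smad that binds the activated type I receptor and recruits Smurf ubiquitin ligases to it. The gene lies at chr18:75367529-75395935 on the plus strand. Its 18 Etv4 regions comprised 5 upstream, 9 that touched the gene and 4 downstream. In the annotation 16 genes, or 0.0729%, had 18 or more Etv4 regions in their window. All 5 Etv5 regions of Smad7 overlapped an Etv4 region. From upstream to downstream, the Etv4 regions of these pairs were centred 22.4 kb, 3.81 kb and 0.817 kb before the gene start, 7.80 kb after it in intron 2, and 38.2 kb after it beyond the gene. The pair closest to the start consisted of an Etv4 region at chr18:75366426-75366997 (number 7915) and an Etv5 region at chr18:75366445-75367040 (number 3097). These regions had 553 bp in common, within the noncoding gene Gm20544, and the first 5.09 kb of Smad7 itself had no Etv4 region. The lowest region numbers of both lists fell on the intron 2 pair, with 946 for Etv4 and 1407 for Etv5. The midpoints of this pair lay 412 bp (Etv4) and 795 bp (Etv5) from the start of another annotated Smad7 transcript. The region number runs from 1 in each list and its criterion is not stated, but low numbers tended to belong to long regions. The other 13 Etv4 regions, from 343 to 1748 bp long, had no Etv5 counterpart. Of these 13 regions, 8 touched Smad7, where Etv4 regions covered 22.1% of the gene and Etv5 regions 2.11%.

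Smad6, the other inhibitory Smad, acts mainly on the bone morphogenetic protein branch of the pathway. Its gene (chr9:63953076-64022059, minus strand) had no region of either list inside. An Etv4 region at chr9:64049923-64050269 and an Etv5 region at chr9:64050391-64050766 lay 28 kb and 28.5 kb upstream, at the start of the noncoding gene 1110036E04Rik. They did not overlap, since 121 bp separated them. The remaining Etv4 region was 80.1 kb and the remaining Etv5 region 94.2 kb after the gene start, both beyond the gene and 13.5 kb apart. The lowest numbers were 8125 for Etv4 and 4840 for Etv5, past the middle of each list. Smad7 and Smad6 therefore differed in number, in position and in overlap.

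Skil encodes SnoN, and Ski its close relative, both of which bind Smad complexes and recruit corepressors to them. Skil (chr3:31095058-31122577, plus strand) had 1 Etv4 region, at chr3:31061206-31061736 (number 9646), 33.6 kb upstream. It overlapped an Etv5 region at chr3:31061108-31061437 (number 6061) by 232 bp. A further Etv5 region at chr3:31095642-31096180 (number 6263) was centred 0.853 kb after the start, in intron 1, with the nearest Etv4 region 33.9 kb away. The upstream pair held an AP-1 site, shown here in capitals as TGAGTCA with 20 bases on each side, because it lies in both regions.
Skil, chr3:31061365-31061411, plus strand: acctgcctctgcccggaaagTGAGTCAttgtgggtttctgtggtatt

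Ski (chr4:155154075-155222592, minus strand) had 3 Etv4 regions, none of them inside the gene. All lay beyond its end, from 73.5 to 92.3 kb after the start, and those at 88.8 and 92.3 kb were in introns of the neighbouring gene Morn1. The Etv4 region at chr4:155133142-155134525 (number 3729) contained the whole of an Etv5 region of 369 bp at chr4:155133783-155134151 (number 4286). The lowest Etv4 number, 3091, belonged to the region at 92.3 kb. Inside Ski the only region was an Etv5 region at chr4:155173513-155173945 (number 3989), 48.9 kb after the start in intron 1. The shared Morn1 region contained the AP-1 site in the stretch below, TGACTCA in capitals.
Ski, chr4:155133790-155133836, plus strand: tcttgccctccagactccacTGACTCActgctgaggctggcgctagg

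Tgif1 encodes a homeodomain corepressor that competes with coactivators for Smad2. The gene (chr17:70844205-70853546, minus strand) was the only member whose annotated start lay inside a region. That Etv4 region, chr17:70852476-70853800, was 1325 bp long and had number 197 of 13636. Further Etv4 regions followed at chr17:70851384-70852281 (number 3482) and chr17:70848814-70850528 (number 4307), so that Etv4 regions covered 39.4% of the 9.34-kb gene. The RefSeq promoter table lists 5 Tgif1 starts, each with 250 bases before and 50 after it. Etv4 regions overlapped 4 of these 5 windows. The single Etv5 region, chr17:70851024-70851357 (number 7692), overlapped 1 of them, and its midpoint lay in the untranslated part of the first exon of the main transcript. It was 26 bp from the nearest Etv4 region and did not overlap it, which makes Tgif1 the gene with the most Etv4 regions among those lacking an overlap. The stretch upstream of the annotated start is shown because the Etv4 region with number 197 contains all of it. Capitals mark CAGACA, a Smad-type word found in 2 of the 5 Tgif1 windows and in 21% of 32851 promoter windows. No ETS word (CAGGAAGT or CCGGAAGT, in 7.07% of promoter windows) and no AP-1 word (TGACTCA or TGAGTCA, in 5.20%) was present in any of the 5 windows. Outside these windows, the Etv4 region with number 197 did contain an AP-1 word, 663 bp after the gene start.
Tgif1, chr17:70853547-70853782, minus strand: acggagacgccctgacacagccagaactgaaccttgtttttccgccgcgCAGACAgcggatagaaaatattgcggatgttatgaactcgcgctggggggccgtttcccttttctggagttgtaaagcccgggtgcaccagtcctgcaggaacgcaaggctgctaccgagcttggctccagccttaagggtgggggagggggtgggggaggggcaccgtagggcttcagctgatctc

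The remaining Tgif1 regions were Etv4 regions outside the gene, 10.1 kb after the start and 25.0 kb before it. The latter, at the noncoding gene Gm26561, held the only ETS word in or close to the regions of Tgif1, in capitals here with 30 bases on each side.
Tgif1 upstream, chr17:70878507-70878574, plus strand: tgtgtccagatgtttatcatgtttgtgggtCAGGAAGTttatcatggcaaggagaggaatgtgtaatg

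Smurf1 is an E3 ubiquitin ligase that targets Smads and, with Smad7, the receptors for degradation. At this gene (chr5:144876495-144965847, minus strand) 4 of 7 Etv4 regions and 4 of 5 Etv5 regions overlapped. The pair with the lowest numbers of both lists was in intron 5, 67.0 kb after the start, with an Etv4 region at chr5:144898130-144899545 (number 757) around an Etv5 region at chr5:144898288-144899073 (number 328). This Etv5 number was the lowest among the regions of all 9 genes. The midpoints of this pair lay 844 bp (Etv4) and 687 bp (Etv5) from the start of another protein-coding Smurf1 transcript. A pair in intron 1 was centred 15.8 kb after the start (numbers 3908 and 951) and another one 11.4 kb after it (numbers 12753 and 4454). The pair nearest the start was 2.25 kb upstream (numbers 5107 and 3127). No region midpoint lay within 2 kb of the Smurf1 gene start. The Etv4 region of the upstream pair ended 1853 bp from that start, and no region overlapped the RefSeq promoter window of Smurf1. Each of the 4 shared pairs had an AP-1 word within 500 bp around both midpoints. Over the Smurf1 gene, AP-1 words numbered 6 in the 2.82 kb covered by Etv4 regions and 14 in the remaining 86.5 kb, or 2.13 against 0.162 per kb. The Etv4 region in intron 1 without an Etv5 counterpart, chr5:144930712-144931128, held 2 of these 6 words, so AP-1 words were not confined to the shared pairs. In the pair 11.4 kb after the start, the AP-1 word lay inside the Etv5 region but outside the Etv4 region. The stretches show the AP-1 words of the 4 shared pairs in capitals, with 20 bases on each side.
Smurf1 intron 5, chr5:144898548-144898788, plus strand: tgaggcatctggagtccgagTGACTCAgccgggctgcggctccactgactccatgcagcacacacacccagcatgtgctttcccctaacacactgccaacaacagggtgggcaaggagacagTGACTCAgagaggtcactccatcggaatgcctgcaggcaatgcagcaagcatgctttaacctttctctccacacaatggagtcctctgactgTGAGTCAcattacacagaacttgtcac
Smurf1 intron 1, chr5:144949921-144949967, plus strand: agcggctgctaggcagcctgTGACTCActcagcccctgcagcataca
Smurf1 intron 1, chr5:144954661-144954707, plus strand: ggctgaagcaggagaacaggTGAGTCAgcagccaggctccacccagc
Smurf1 upstream, chr5:144967952-144967998, plus strand: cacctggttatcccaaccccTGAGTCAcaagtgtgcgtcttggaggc

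The 3 Etv4 regions of Smurf1 without an Etv5 counterpart lay in intron 1, beyond the gene end and 13.2 kb upstream. The upstream region (chr5:144978637-144979374, number 3557) held the only CCGGAAGT word near the midpoint of any region of the 9 genes. It is printed in capitals on the strand of the gene, with 30 bases on each side.
Smurf1 upstream, chr5:144979171-144979238, minus strand: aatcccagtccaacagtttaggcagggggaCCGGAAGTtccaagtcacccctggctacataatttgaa

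Smurf2, a second E3 ligase that works with Smad7 at the receptors, showed the opposite arrangement. Its gene (chr11:106820066-106920715, minus strand) is 101 kb long and no region touched it. Upstream, 4 Etv4 regions lay 33.6 to 47.2 kb from the start, and 4 lay beyond the gene end. Those beyond the end were all within 2 kb of a transcript start of a neighbour, namely Polg2, Ddx5 and Cep95. All 4 Etv5 regions overlapped an Etv4 region, with a pair at Polg2, a pair at Ddx5 and both others upstream. The lowest Etv4 number, 538, was at Polg2, and the lowest Etv5 number, 565, belonged to a pair 36.9 kb upstream. That pair consisted of chr11:106957103-106958164 (Etv4, number 608) and chr11:106957322-106958177 (Etv5), with 843 bp in common. It was the only shared pair outside Smad7 in which the windows of both lists held an ETS word and an AP-1 word, both capitalised in the first stretch. The second stretch shows the ETS word of an Etv4 region 41.1 kb upstream (number 5593) that had no Etv5 counterpart.
Smurf2 upstream pair, chr11:106957555-106957750, plus strand: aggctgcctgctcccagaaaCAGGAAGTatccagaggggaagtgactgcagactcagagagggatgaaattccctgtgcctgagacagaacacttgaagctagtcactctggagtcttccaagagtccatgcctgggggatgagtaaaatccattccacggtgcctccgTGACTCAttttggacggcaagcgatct
Smurf2 upstream, chr11:106961811-106961878, plus strand: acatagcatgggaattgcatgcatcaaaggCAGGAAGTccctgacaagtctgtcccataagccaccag

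Pmepa1, also named TMEPAI, encodes a membrane protein that sequesters receptor-activated Smads and is a well-known target of TGF-β. The gene (chr2:173224458-173276533, minus strand) is 52.1 kb long, and 26 of its 30 Etv4 regions touched it. In the annotation only Gm20388, a readthrough model of 4430 kb, had as many Etv4 regions in its window. For 18 of the 30 regions the nearest protein-coding gene start was that of Pmepa1, and for the others that of the neighbour Zbp1. Zbp1 had 23 Etv4 regions in its own window and 0 inside the gene. Etv4 regions covered 27.2 kb of Pmepa1, or 52.2%, while Etv5 regions covered 6.82%. Of all 21938 protein-coding genes, 122 had an Etv4 cover this high, Pmepa1 included. Of the 10159 protein-coding genes of at least 20 kb, 2 did, Pmepa1 included. The cover was uneven along the gene. It was 79.7% in the first 10 kb, 91.1% in the next 10 kb, then 34.9%, 38.8% and 12.4%, and 72.4% in the last 2.08 kb. The longest stretch without an Etv4 region ran from 41.0 to 46.3 kb after the start. Gaps between neighbouring Etv4 regions had a median of 686 bp, and 12 of the 29 were at most 300 bp, the width of the window used in calling. Merging regions within 300 bp lowered the count for all 9 genes from 74 to 58. Keeping only regions whose nearest protein-coding gene start was that of the member lowered the Etv4 count to 53.

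**Figure D3:**
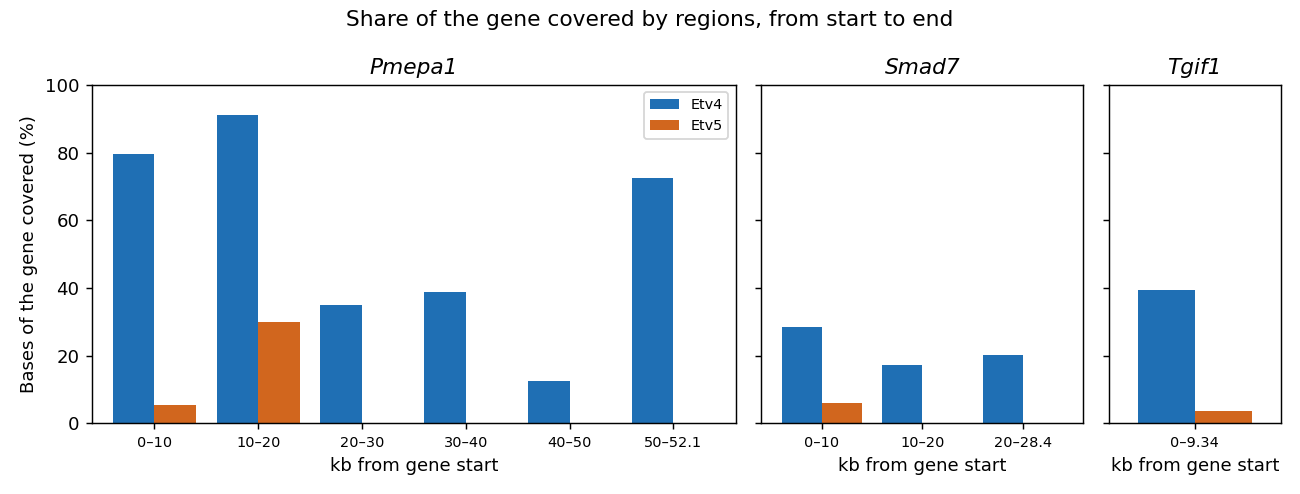
Bars give the percentage of bases covered by Etv4 and Etv5 regions in successive 10-kb parts of each gene from its start, with a shorter last part. Etv4 cover of Pmepa1 reaches 91.1% between 10 and 20 kb, and Etv5 cover has its maximum of 29.9% in the same part.

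The longest Etv4 region among the 9 genes, chr2:173263087-173267631, measured 4545 bp in intron 1 of Pmepa1 and had number 193, the lowest of the 74. All 5 Etv4 regions of 2 kb or longer at these genes were at Pmepa1, out of 122 in the list. The region nearest the gene start, chr2:173273437-173275872 (number 1112), was centred 1.88 kb after it and had no Etv5 counterpart. All 6 Etv5 regions of Pmepa1 lay wholly inside an Etv4 region. In intron 1 there were 4, at 9.97, 12.8, 14.5 and 18.6 kb after the start, with numbers 852, 882, 1313 and 1137. The other Etv5 regions were 4.71 and 5.41 kb upstream, inside a shared Etv4 region at chr2:173281057-173282270 (number 1502). The Etv4 regions that contained them were 1214 to 4545 bp long, and no Etv5 region of Pmepa1 reached beyond 18.9 kb after the start. The first stretches below show an AP-1 word in intron 1 and another in the upstream pair. They are followed by a GTCTAGAC word, the palindromic form of the Smad binding element, in intron 1, and by the ETS words in or close to the regions of the locus. All words are in capitals.
Pmepa1 intron 1, chr2:173263781-173263827, plus strand: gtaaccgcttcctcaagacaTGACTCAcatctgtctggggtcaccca
Pmepa1 upstream, chr2:173281736-173281782, plus strand: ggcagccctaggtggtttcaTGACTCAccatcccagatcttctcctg
Pmepa1 intron 1, chr2:173258128-173258195, plus strand: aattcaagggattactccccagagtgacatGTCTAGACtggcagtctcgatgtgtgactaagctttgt
Pmepa1 upstream, chr2:173281055-173281122, plus strand: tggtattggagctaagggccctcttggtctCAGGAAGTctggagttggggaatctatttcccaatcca
Pmepa1 intron 1, chr2:173237600-173237667, plus strand: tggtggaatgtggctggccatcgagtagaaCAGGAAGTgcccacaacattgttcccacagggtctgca
Pmepa1 downstream, chr2:173222388-173222455, plus strand: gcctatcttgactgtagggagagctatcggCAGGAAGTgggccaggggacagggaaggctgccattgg

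In the Pmepa1 gene, CAGACA occurred 2.17 times per kb within Etv4 regions and 1.61 times per kb between them, while chromosome 2 as a whole held 1.00 per kb. The gene was thus rich in this word inside and outside the regions. AP-1 words numbered 8 in the 27.2 kb covered by Etv4 regions and 4 in the remaining 24.9 kb, or 0.294 against 0.161 per kb, with 0.167 per kb over chromosome 2. These counts are small, and the ETS word occurred 1 time within and 2 times between Etv4 regions of the gene.

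Bambi encodes a pseudoreceptor without a kinase domain that blocks receptor signaling. The gene (chr18:3507923-3516404, plus strand) had no region inside or within 50 kb. Between 50 and 500 kb from it there were 4 Etv4 and 3 Etv5 regions, so the surrounding sequence was not devoid of regions. With the depth unknown, no limit can be put on binding at Bambi.

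Over all 9 genes, 19 of 74 Etv4 regions overlapped an Etv5 region, or 25.7% (95% interval 16.2 to 37.2), against 37.8% of the whole Etv4 list. In the other direction, 21 of 27 Etv5 regions overlapped an Etv4 region, or 77.8% (57.7 to 91.4), against 63.2% of the whole list. These shares count any overlap of at least 1 bp. They fell to 12.2% for Etv4 and 33.3% for Etv5 when at least 50% of both regions had to overlap. With midpoints within 250 bp they were 17.6% and 48.1%. Whole-list shares under these stricter rules were not computed, so the falls cannot be read as a trait of these genes. The overlapping Etv4 regions had a median length of 1161 bp and the overlapping Etv5 regions one of 644 bp. The intervals are exact binomial ones and cover counting error only, and neighbouring regions are not independent. The Etv4 share was lower at Pmepa1 (4 of 30, 13.3%), and it was 34.1% (15 of 44) without this gene, an alternative chosen after seeing the data. Of the 21 overlapping Etv5 regions, 14 (66.7%) lay wholly inside an Etv4 region, against 45.7% of the overlapping Etv5 regions in the list. Etv4 regions without an overlap had a median length of 590 bp, and in the whole list the medians with and without overlap were 728 and 526 bp. Of the overlapping Etv4 regions 10 of 19 were in the first 10% of region numbers, and of the others 3 of 55. Their median percentiles were 8.36 and 57.1, where the list had 28 and 61.8. The exceptions among the regions without overlap were the Tgif1 start region and 1 region each at Smad7 and Pmepa1. Only 2 of the 27 Etv5 regions were in the first 10% of their list (7.41%), at Smurf1 and Smurf2. At the other end, the shared Etv4 region 11.4 kb into Smurf1 was at percentile 93.5.

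**Figure D4:**
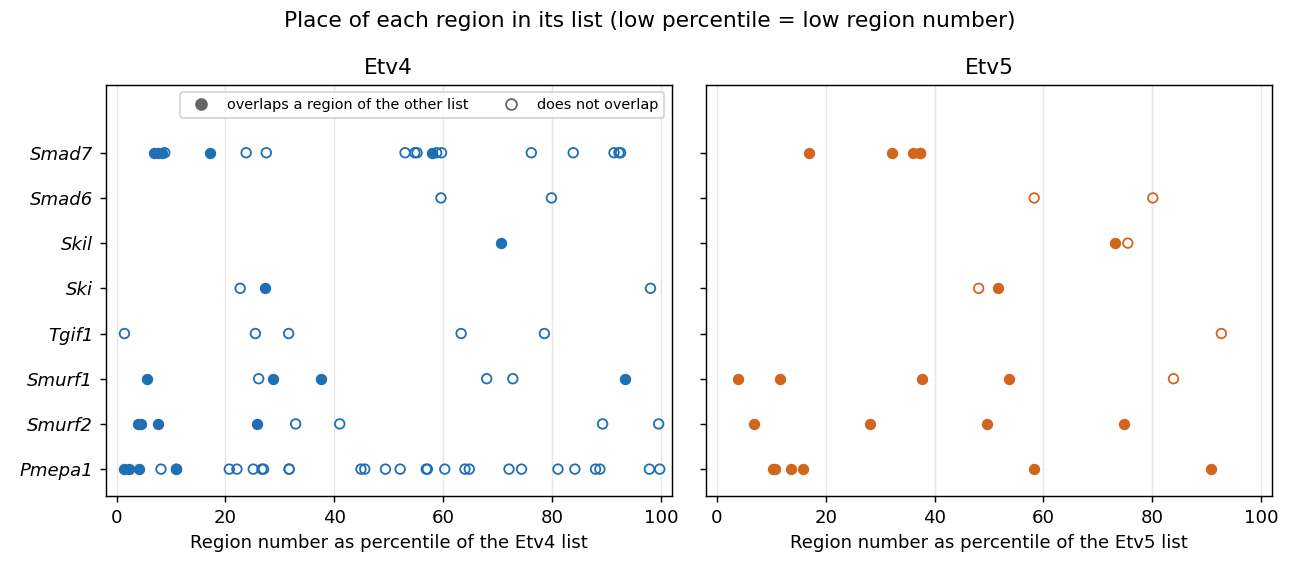
Each circle is a region, placed by its number as a percentile of its own list, with filled circles for overlap with the other list. Filled Etv4 circles have a median percentile of 8.36 over all 19, although those of Smurf1 spread from 5.55 to 93.5 and Smad7 has one at 58.0, and open Etv4 circles have a median of 57.1.

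Most regions were away from transcript starts. An Etv4 midpoint lay within 2 kb of the start of Smad7, Pmepa1 and Tgif1, that is of 3 of the 9 genes, against 15.4% of protein-coding genes. An Etv5 midpoint did so at Smad7 and Skil, against 8.73%. These counts use the annotated gene start only. At Smurf1, an Etv4 and an Etv5 midpoint lay 844 and 687 bp from the start of another protein-coding transcript of the gene. The Etv5 midpoint of Tgif1 lay 16 bp from such a start. Within 2 kb of any annotated transcript start there were 15 of 74 Etv4 regions (20.3%, interval 11.8 to 31.2, whole list 36.5%) and 9 of 27 Etv5 regions (33.3%, interval 16.5 to 54.0, whole list 33.1%). The Etv4 share was 29.5% without Pmepa1 and 38.5% without Pmepa1 and Smad7, so its distance from the list rests on these genes. Introns beyond that distance held 33 Etv4 regions (44.6%, list 29.7%), of which 22 were at Pmepa1, and without Pmepa1 the intronic share was 25.0%. Intergenic sequence held 24 Etv4 regions (32.4%, list 31.2%). Of the Etv5 regions 8 were intronic (29.6%, list 30.8%) and 9 intergenic (33.3%, list 34.0%).

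ETS words occurred in shares of regions whose intervals included the value of each whole list. Within 500 bp around the midpoint, CAGGAAGT or CCGGAAGT on either strand occurred in 7 of 74 Etv4 regions (9.46%, interval 3.89 to 18.5, list 10.2%) and in 3 of 27 Etv5 regions (11.1%, interval 2.35 to 29.2, list 7.92%). The same words read backwards, which are not ETS sites, occurred in 5 Etv4 regions (6.76%, list 3.59%) and 3 Etv5 regions (11.1%, list 3.81%), close to the counts of the ETS words. CCGGAAGT alone was found in 1 Etv4 region (1.35%, list 3.45%) and in no Etv5 region (list 2.17%). Only 1 of the 42 Etv4 regions that touched a member gene had an ETS word (interval 0.0603 to 12.6%). Of the 32 outside the genes 6 did (interval 7.21 to 36.4%). Of the 42 regions 26 were at Pmepa1. The whole list was not split in this way, and the difference was not tested. AP-1 words, bound by Fos and Jun proteins, occurred near the midpoint of 21 of 74 Etv4 regions (28.4%, interval 18.5 to 40.1, list 37.4%) and 13 of 27 Etv5 regions (48.1%, interval 28.7 to 68.1, list 35.7%). Among Etv4 regions, 9 of 19 that overlapped Etv5 had an AP-1 word (47.4%) and 12 of 55 of the others (21.8%), where the list had 44.2% and 33.2%. Among Etv5 regions the counts were 12 of 21 (57.1%) and 1 of 6 (16.7%), where the list had 43.1% and 23.2%. The RUNX words TGTGGTT and TGTGGTC were found in 13 Etv4 regions (17.6%, list 24.7%) and 5 Etv5 regions (18.5%, list 23.9%). CAGACA was found in 39 Etv4 regions (52.7%, list 42.0%), of which 20 were at Pmepa1, and without Pmepa1 the share was 43.2%. For Etv5 it was found in 14 regions (51.9%, list 42.5%). The palindrome GTCTAGAC occurred near the midpoint of 1 Etv4 region (1.35%, list 0.799%) and 1 Etv5 region (3.70%, list 0.759%). Both were at Pmepa1 but at different sites. The Etv5 count came from the site printed above, at chr2:173258158. The Etv4 count came from a site at chr2:173259682, just outside an Etv4 region without an Etv5 counterpart. Over the Pmepa1 gene the palindrome occurred 1 time within Etv4 regions and 3 times between them.

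Other genes of the pathway were counted in the same way. Of the 6 genes for receptor-activated Smads and Smad4, only Smad3 (8 Etv4 and 3 Etv5 regions) and Smad5 (1 and 1) had regions. Smad3 carries signals of TGF-β and activin receptors, and all 8 of its Etv4 regions touched the gene. Of 14 ligand and receptor genes, 7 had an Etv4 region and 7 an Etv5 region, with the largest number at the receptor gene Bmpr1b (4 Etv4 regions and no Etv5 region). Of 10 further modulators, 4 had an Etv4 region and only Nedd4l, an E3 ligase for Smads, had an Etv5 region (3 and 3). Over all protein-coding genes, 53.4% had an Etv4 region and 42.7% had an Etv5 region. The median number of Etv4 regions was 0 in the first and last of these groups and 0.5 among ligands and receptors. It was 5 among the 9 inhibitor genes and 1 over all protein-coding genes. Members of all groups were chosen with results of these data known, and the comparison carries no test.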

How the data were processed

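ChIP-seq DNA was sequenced after 15 cycles of PCR. The authors mapped reads to mm10 (Bowtie, per the labels) and called regions per library with CisGenome in its one-sample mode (300-bp window, p threshold 0.1) without a control, so that mappability, copy number and open chromatin were not corrected. Each deposited list has 6 columns, among them a score that the authors set to 1000 for every region and a region number. Other deposited values are positions in bp. No count, height or p-value is given, so depth is unknown. The shortest region was 299 bp and lengths may be off by 1 bp.

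Genes were protein-coding GENCODE M21 entries. Sequence came from GRCm38, promoters from RefSeq, whose table held 5 of the 9 genes (not Smad7, Skil, Pmepa1 or Bambi). Coordinates count from 1. Regions overlapped from 1 bp. Distances run from region midpoints. Repeated 36-base words made up at most 8.78% of any region. Named regions were those at or nearest a gene start, all overlapping pairs and the lowest region number of each list. The members, lists and rules were chosen with earlier results of these data known. Alternatives varied windows, overlap, distance, list size and words. Functions were tested on simulated data. Python 3.11.15, numpy 2.4.6, pandas 2.3.3 and scipy 1.17.1 were used. Chromatin accessibility and RNA data were not used here.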

Additional observations from a re-analysis of the deposited data

How the results depend on the processing

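No paired analysis was possible because there was only 1 library for each antibody. Of 50 values recomputed under other settings, 35 stayed close to the value reported (counts within 1.5 times, shares within the 95% interval). The longer 50% of each list left 44 Etv4 and 17 Etv5 regions, and the first 50% by region number left 38 and 16, with 5 genes that had an Etv5 region, since both hold fewer regions. A window of 10 kb left 17 Etv5 regions. Overlap of at least 50% of both regions gave 12.2% for Etv4 and 33.3% for Etv5, and midpoints within 250 bp gave 48.1% for Etv5. Within 5 kb of a transcript start lay 37.8% of Etv4 regions. CCGGAAGT alone occurred in 1.35% of Etv4 and 0% of Etv5 regions. In a 200-bp window the ETS share of Etv5 regions was 0%, and AP-1 shares were 14.9% for Etv4 and 22.2% for Etv5. Alternatives without Pmepa1, or without Pmepa1 and Smad7, were added after seeing the data. Without Pmepa1, 44 Etv4 regions remained. Without both genes, 26 Etv4 and 16 Etv5 regions remained, and 38.5% of the Etv4 regions overlapped Etv5 and 38.5% were within 2 kb of a transcript start. Without mostly multicopy regions no count changed.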
